A study of Mus musculus with 9 samples.

Results

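Cx3cl1, Cxcl3 and Ccl22 encode 3 chemokines, and each was followed here through 1 row of a table of 56923 gene rows measured in 9 mouse tumours. The rows carry the identifiers ENSMUSG00000033009 (Ogfod1), ENSMUSG00000029370 (Rassf6) and ENSMUSG00000031754 (Nudt21). These 3 rows did not lie on the genes they are named after, nor did most nuclear rows that could be placed. Of 7541 nuclear rows placed on 1 coding gene, 913 lay on the gene of their name. The chemokine names are inferred. They are those of the loci on which the 3 rows lay once their exons were moved along the chromosome. The displacement used was the one that best accounted for the counts. All 3 rows passed the low-count filter, as did 11521 rows in all.

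Each tumour had been grown from EL4 cells, a mouse T-cell lymphoma line, and was profiled by RNA sequencing. The 5 tumours labelled Vec and the 4 labelled HVEM-KO differ in the labels only by this genotype, HVEM being the receptor encoded by Tnfrsf14, and the series title concerns escape of leukaemia from CD8 T cells. Strain, sex and age of the animals, the site and time of growth, the edited part of Tnfrsf14 and the number of clones do not appear in the labels. No label says that the libraries came from separate animals, so p-values measure only the spread between these libraries.

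Total counts ran from 5532155 to 8205620 per library, and no 2 libraries agreed within sampling noise. The row named Tnfrsf14 held 1 read. The row of Ttc34 lay on Tnfrsf14, with 225 bp or 4.55% of its exon length, at 34.6, 64.2, 40.0, 69.4 and 56.8 CPM (counts scaled to library size) in Vec 1 to 5 and 37.3, 50.9, 49.7 and 49.0 CPM in HVEM-KO 1 to 4. Its groups overlapped (log2 fold change -0.18 ± 0.21 (SE), edgeR quasi-likelihood test, adjusted p = 0.761). The HVEM-KO labels were therefore not checked by the targeted gene, since host cells can express it and the edited part is unknown. Rows on T lineage genes summed to 2934 to 5791 CPM in Vec and 2483 to 3698 CPM in HVEM-KO tumours. On the first dimension of a multidimensional scaling, the highest were Vec 5 (1.497) and Vec 1 (1.36), with all other libraries between -1.22 and 0.46. On the second dimension HVEM-KO 4 was the highest (1.227), and Vec 3 came next (0.653).

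Chemokines are small proteins that guide white blood cells through receptors coupled to G proteins. Cx3cl1, or fractalkine, is unusual in being made as a membrane protein on a mucin stalk. It holds cells that carry CX3CR1, such as monocytes, NK cells and cytotoxic T cells, and is released by proteases. Cxcl3 acts on CXCR2 and draws neutrophils, and is induced through NF-kB in myeloid and stromal cells. Ccl22, made mainly by dendritic cells and macrophages, acts on CCR4 and draws regulatory T cells. In a bulk tumour, fewer cells of a type and less RNA per cell cannot be told apart.

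The sequences at the gene starts are shown because the 3 rows differed most in how far they spread between tumours, and because these are the genes that the inferred names stand for. The 250 bases before the RefSeq start, in GRCm38.p6 and on the plus strand of each, are chr8:94771930-94772179 for Cx3cl1, chr5:90785851-90786100 for Cxcl3 and chr8:94745434-94745683 for Ccl22. Capitals mark matches on either strand to an NF-kB motif, GGGA and TTTCC with 1 base of any kind between them, and to the TATA motif TATAAA, which do not overlap. A motif that STAT6 can bind, TTC and GAA with 4 bases of any kind between them, was searched too.
Cx3cl1: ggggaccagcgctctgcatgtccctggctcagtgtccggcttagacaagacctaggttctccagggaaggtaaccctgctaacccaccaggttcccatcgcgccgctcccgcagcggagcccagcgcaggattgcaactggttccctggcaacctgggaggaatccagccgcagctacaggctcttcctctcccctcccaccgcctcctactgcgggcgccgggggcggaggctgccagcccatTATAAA
Cxcl3: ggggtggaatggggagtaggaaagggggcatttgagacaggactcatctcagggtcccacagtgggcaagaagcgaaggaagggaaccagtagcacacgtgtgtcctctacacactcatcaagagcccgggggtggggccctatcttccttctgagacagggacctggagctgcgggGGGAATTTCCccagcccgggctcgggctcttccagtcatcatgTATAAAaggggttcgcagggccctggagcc
Ccl22: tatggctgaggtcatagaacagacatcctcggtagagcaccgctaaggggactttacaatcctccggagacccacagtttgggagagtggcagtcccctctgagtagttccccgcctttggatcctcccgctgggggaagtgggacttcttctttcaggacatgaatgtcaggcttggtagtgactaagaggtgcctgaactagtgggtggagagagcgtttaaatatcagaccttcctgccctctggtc
Cxcl3 held both marked motifs, GGGAATTTCC from 73 bases and TATAAA from 30 bases before the start. Cx3cl1 held TATAAA from 6 bases before it, and Ccl22 held no match to either. The start of the gene differs between annotations. GENCODE places that of Cx3cl1 171 bases and that of Ccl22 94 bases further upstream, so this many of the bases shown lie inside the GENCODE gene, the TATAAA of Cx3cl1 included (165 bases after the GENCODE start). For Cxcl3 the starts differ by 2 bases, and none of the bases shown lies inside the gene. None of the 3 held the STAT6 motif. Over 32851 RefSeq promoter windows of this length, 0.36% held the NF-kB motif, 12.4% the TATA motif and 5.85% the STAT6 motif. The motifs were chosen after the values were seen, and a match is a description of the letters.

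The 3 names rest on unequal overlap. Cx3cl1 lies on chromosome 8 from 94772009 to 94782427 in GRCm38, in 6 exon blocks, and Ccl22 on the same chromosome from 94745590 to 94751699, in 4 exon blocks. Cxcl3 lies on chromosome 5 from 90786103 to 90789600. Its exons, merged over all annotated transcripts, form 1 block over the whole gene, so intron bases could not be counted apart for it. The fitted displacement was 726750 bp for both rows on chromosome 8 and 147750 bp for the row on chromosome 5, held over stretches of 1098 and 720 rows. With these, the Rassf6 row covered 2186 bp of Cxcl3, which was 62.5% of its merged exon block and 51.3% of the row. The row also held 141 bp of Ppbp, another chemokine gene. The Ogfod1 row covered 633 bp of Cx3cl1, in its exons 5 and 6, and only 10.8% of that row lay on the gene's exons. The Nudt21 row covered 303 bp of Ccl22 in exons 1, 2 and 4, with 5.7% of the row on exons and another 939 bp in its introns. A displacement 250 bp shorter or longer left the same gene as the locus, with 532 and 403 bp for Cx3cl1, 2055 and 2186 bp for Cxcl3 and 273 and 467 bp for Ccl22. The rows on Cxcl3 and Ccl22 lay on the opposite strand of the gene.

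**Figure D1:**
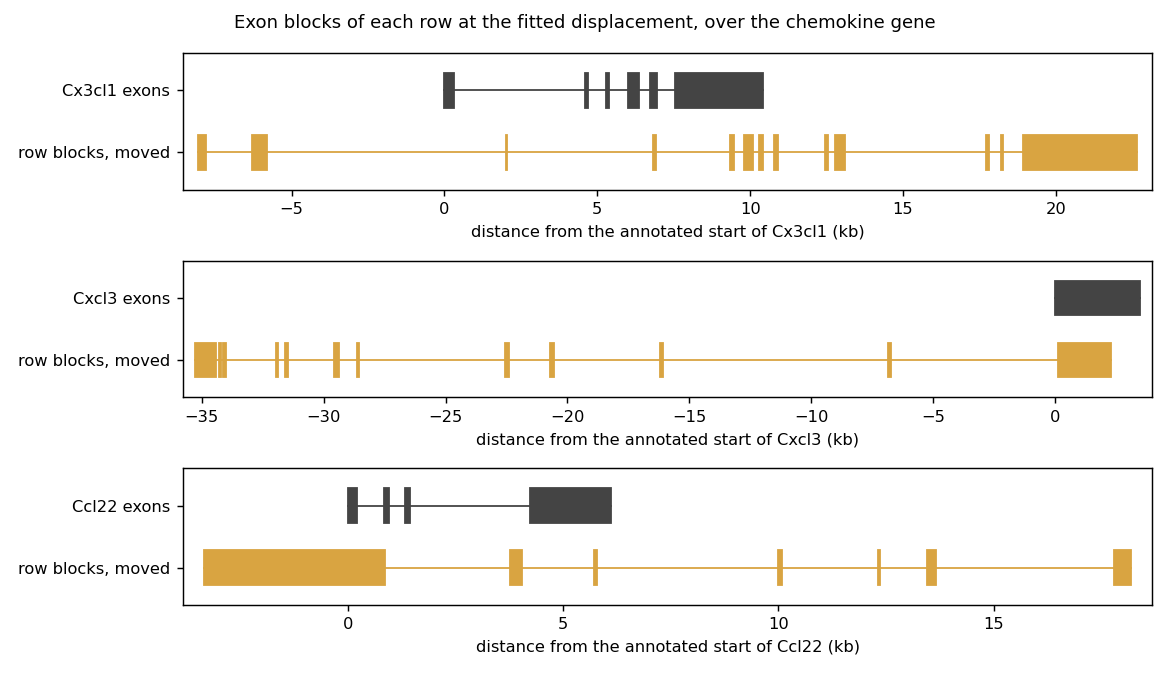
Exon blocks of each row at the fitted displacement (yellow) and exons of the chemokine gene (grey), against distance in kb from the annotated start of the gene. A single large block of the Rassf6 row lies on Cxcl3, while most of the Ogfod1 and Nudt21 blocks lie beside the exons of Cx3cl1 and Ccl22.

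A further row went against the name of Cx3cl1. Gm45873, moved by the same displacement, covered 187 bp of exons 2 and 3 of Cx3cl1 and held 4 reads over the 9 libraries. That is 21.4 reads per kb of exon overlap, against 790 in the Ogfod1 row, a 36.9-fold gap. Among 1764 pairs of rows on 1 gene with at least 100 reads in either row, the median gap was 3.08-fold and 14.7% of pairs had one as large. The Ogfod1 row is therefore called the Cx3cl1 row by its place only, and whether its reads came from Cx3cl1 transcripts was not tested. Rows that touched no coding exon held reads as well. Of 466 rows of at least 1 kb on that stretch with no coding overlap, 5.37% held as many reads per kb of row as the Cx3cl1 row (85.5) and 8.58% as many as the Ccl22 row (43.9). On chromosome 5 the share was 2.37% of 295 rows for the Cxcl3 row (79.3 reads per kb).

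Cxcl3 had the widest spread of the 3 between tumours, and most of that spread lay within the groups. It was at 0.376, 21.9, 3.40, 7.49 and 0.685 CPM in Vec 1 to 5, from 3, 126, 26, 50 and 4 reads. In HVEM-KO 1 to 4 it was at 11.3, 1.01, 6.41 and 2.49 CPM, from 69, 6, 39 and 15 reads. Vec 2 was highest and Vec 1 lowest of the 9, and all 4 HVEM-KO tumours lay between these. The highest value was 58.2 times the lowest, with an exact 95% counting interval from 19.5 to 286. Counting error alone would give a coefficient of variation of 15.5% in Vec and 17.6% in HVEM-KO tumours, where 132% and 86.9% were measured.

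Cxcl3 averaged 6.76 ± 8.91 CPM over the Vec group (SD, n = 5) and 5.31 ± 4.62 CPM over the HVEM-KO group (SD, n = 4). The log2 fold change of HVEM-KO over Vec was -0.33 ± 0.93 (SE), with a 95% interval from -2.15 to 1.49, and did not pass (edgeR quasi-likelihood test, adjusted p = 0.917). The sign of this difference rested on single tumours. It was 0.83 without Vec 2 and 0.01 without HVEM-KO 2, while it was -0.99 without HVEM-KO 1, -0.64 without Vec 1, -0.62 without Vec 5, -0.50 without Vec 3 and -0.09 without HVEM-KO 4. The means of log2 CPM differed the other way, by 0.29 (exact two-sided permutation test, p = 0.810). Without both Vec 1 and Vec 5 the log2 fold change was -1.02 (adjusted p = 0.771).

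**Figure D2:**
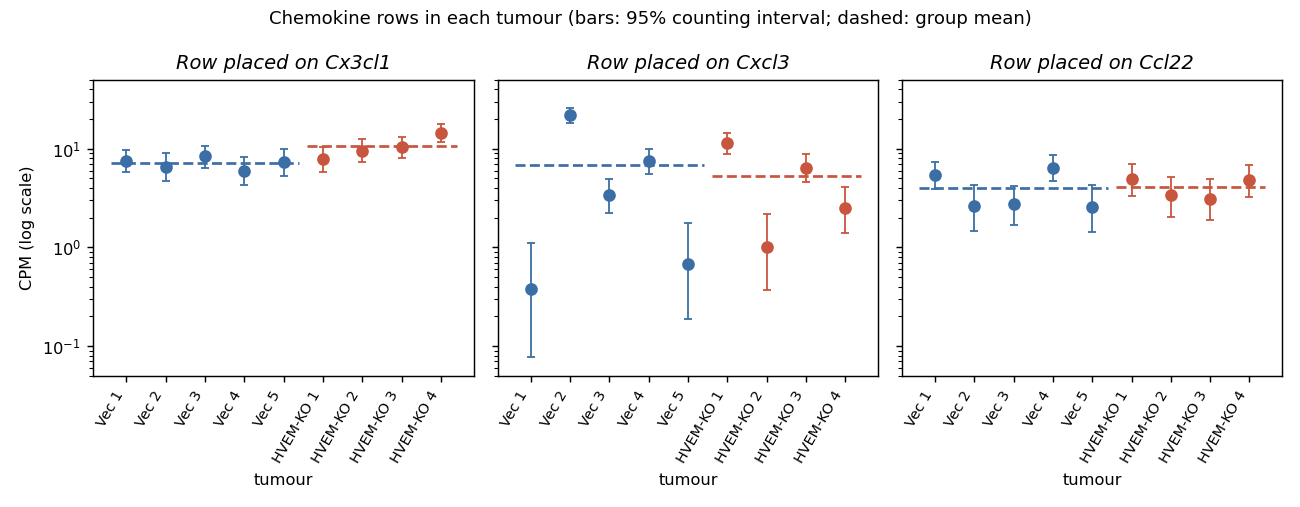
CPM of the rows placed on Cx3cl1, Cxcl3 and Ccl22 in each tumour, on a log scale, with exact 95% counting intervals and the group mean as a dashed line (Vec blue, HVEM-KO red). Cxcl3 ranges from 0.376 to 21.9 CPM within Vec tumours alone, whereas 3 of 4 HVEM-KO tumours lie above every Vec tumour for Cx3cl1.

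The Cx3cl1 row showed the opposite arrangement, with little spread within Vec tumours and higher values in most HVEM-KO tumours. It was at 7.52, 6.60, 8.36, 5.99 and 7.36 CPM in Vec 1 to 5 and at 7.88, 9.57, 10.4 and 14.4 CPM in HVEM-KO 1 to 4. HVEM-KO 2, 3 and 4 were above every Vec tumour, and HVEM-KO 1 fell within the Vec range, so the groups overlapped. The means were 7.17 ± 0.907 CPM (SD, n = 5) and 10.6 ± 2.78 CPM (SD, n = 4). In Vec tumours the coefficient of variation, 12.7%, was no larger than counting error gives (14.4%). In HVEM-KO tumours it was 26.3%, against 12.5% from counting.

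The log2 fold change of the Cx3cl1 row was 0.56 ± 0.23 (SE), or 1.47-fold, with an unadjusted p = 0.0342 and an adjusted p = 0.434 in edgeR's quasi-likelihood test, and it did not pass. Over all rows 0 of 11521 passed (0.0%), and 1226 (10.6%) had an unadjusted p under 0.05, 575 of them (4.99%) with the row higher in HVEM-KO tumours. DESeq2 called 81 rows (0.703%), and none of the 3 chemokine rows was among them (adjusted p = 0.369, 0.932 and 0.9903 for Cx3cl1, Cxcl3 and Ccl22). An exact two-sided permutation test of mean log2 CPM gave p = 0.0317, unadjusted for the 3 rows so tested, where the smallest p that the 126 splits allow is 0.0159. Without HVEM-KO 4 the log2 fold change was 0.37 (edgeR, unadjusted p = 0.145, adjusted p = 0.448). The unadjusted edgeR p was also above 0.05 without HVEM-KO 3 (0.056), Vec 2 (0.061) or Vec 4 (0.077). So it was without both Vec 1 and Vec 5 (0.064) and without the low-count filter (0.063). In the other settings tried it was under 0.05.

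Ccl22 had close group means and a narrower spread than Cxcl3. Its row was at 5.39, 2.60, 2.74, 6.44 and 2.57 CPM in Vec 1 to 5 and at 4.93, 3.36, 3.13 and 4.81 CPM in HVEM-KO 1 to 4. Vec 1 and Vec 4 were the highest of the 9, the other Vec tumours were the lowest, and every HVEM-KO tumour lay between them. The means were 3.95 ± 1.84 CPM (SD, n = 5) and 4.06 ± 0.946 CPM (SD, n = 4), a log2 fold change of 0.03 ± 0.36 (SE; edgeR, adjusted p = 0.982) with a 95% interval from -0.68 to 0.74. The sign turned without Vec 2, Vec 3, Vec 5, HVEM-KO 1 or HVEM-KO 4 (lowest -0.09), and the value was 0.17 without Vec 1, 0.27 without Vec 4 (the highest), 0.11 without HVEM-KO 2 and 0.14 without HVEM-KO 3. The exact two-sided permutation test gave p = 0.730. The coefficient of variation was 46.5% in Vec tumours, against 19.3% from counting, and 23.3% in HVEM-KO tumours, against 20.2%.

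Set against all tested rows, the 3 chemokines took different places. The pooled SD of log2 CPM within groups was 1.81 for Cxcl3, and 8 of 11521 rows (0.0694%) had a larger one. For Ccl22 it was 0.50, with 31.7% of rows above it, and for Cx3cl1 0.27, with 70.7% above it. The median over all rows was 0.37. The difference of group means, in units of this SD, was 1.93 for Cx3cl1, 0.23 for Ccl22 and 0.16 for Cxcl3, and 4.64%, 81.3% and 86.7% of rows had a larger one in either direction. The groups made up 54.2% of the variance of log2 CPM over the 9 tumours for Cx3cl1, 1.58% for Ccl22 and 0.799% for Cxcl3. Rows with few reads spread more, and these ranks are not corrected for it.

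**Figure D3:**
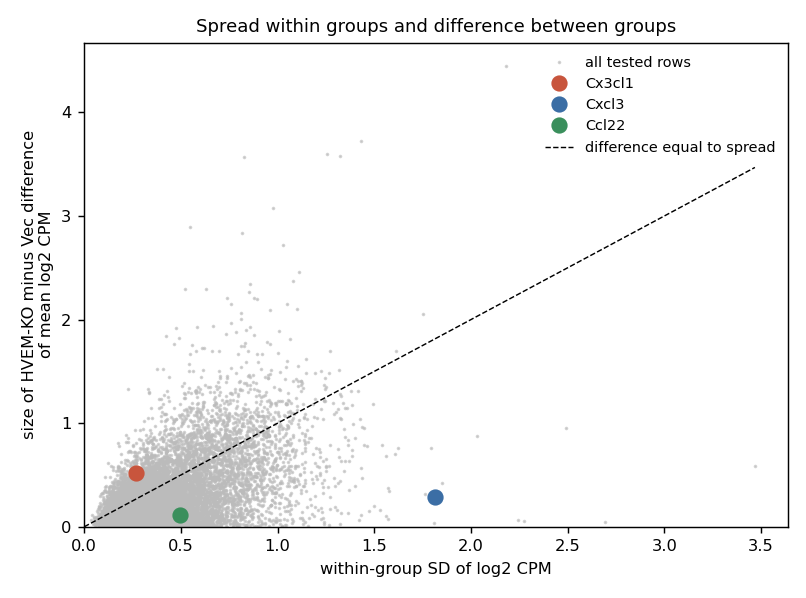
Pooled within-group SD of log2 CPM (horizontal) and size of the difference between group means of log2 CPM (vertical) for all 11521 tested rows (grey) and the 3 chemokine rows. Cxcl3 lies far to the right at an SD of 1.81, and of the 3 only Cx3cl1 lies above the line where the difference equals the spread.

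No relation between the 3 rows from tumour to tumour passed a test. Between Cx3cl1 and Cxcl3, Pearson's r of log2 CPM was -0.22 and Spearman's rho -0.25 over 9 tumours (exact permutation p = 0.577 and 0.521). It was -0.03 with a rho of -0.05 for Cx3cl1 and Ccl22 (exact permutation p = 0.947 and 0.912), and -0.03 with a rho of 0.0 for Cxcl3 and Ccl22 (exact permutation p = 0.930 and 1.0). Adjusted over the 3 pairs, p was 0.947 for each r and 1.0 for each rho. Without the 2 tumours farthest from the median of the first gene, r was -0.46, -0.33 and 0.60 in the same order. Within groups, as deviations from the group means, it was -0.43, -0.18 and -0.05.

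Of 38 chemokine ligand genes listed, 5 had a placed row. Besides the 3, these were Ccl19 and Ccl21a, ligands of CCR7, with 7 reads each over all libraries and too few to test. Cxcl1, Cxcl2, Cxcl5 and Ccl17 had no placed row and are not described. Of 23 chemokine receptor genes 1 had one, and neither Cx3cr1, Cxcr2 nor Ccr4 did. That 1 was Ccrl2, a receptor that binds chemerin and does not signal as most of the others do. The Ccrl2 row, with 182 bp or 3.43% of its length on the gene, was at 0.251, 7.46, 3.004, 2.85 and 0.171 CPM in Vec 1 to 5 and at 0.821, 0.840, 4.28 and 3.15 CPM in HVEM-KO 1 to 4. As with Cxcl3, Vec 2 was the highest, and Vec 1 and Vec 5 the lowest. Its log2 fold change was -0.25 ± 0.84 (SE; edgeR, adjusted p = 0.931).

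Of 9 genes whose products cut or bind the ligands 5 had a placed row, 4 were tested and 0 passed in edgeR or DESeq2. Their median log2 fold change was 0.31, where that of all tested rows was 0.01. Adam17, a protease that sheds Cx3cl1, averaged 16.7 ± 5.22 CPM over the Vec group (SD, n = 5) and 19.7 ± 3.14 CPM over the HVEM-KO group (SD, n = 4). Dpp4, a peptidase that trims Ccl22, was at 13.9 ± 5.68 and 20.2 ± 1.10 CPM. Ctss, which encodes cathepsin S and whose product can also cut Cx3cl1, was at 744 ± 356.5 and 970 ± 330 CPM, and Itgav, an integrin chain, at 48.7 ± 10.9 and 54.4 ± 13.2 CPM. The adjusted p in edgeR ran from 0.522 for Dpp4 to 0.785 for Itgav. Without Vec 1 and Vec 5 the log2 fold change turned for Adam17 (0.24 to -0.06), Ctss (0.38 to -0.03) and Itgav (0.16 to -0.02), while that of Dpp4 was 0.26, and the median was -0.02. Itga4 had 33 reads and was not tested. These names are inferred from unequal overlap. On the named gene lay 3.05% of the Adam17 row, 9.53% of the Ctss row, 12.8% of the Dpp4 row and 100% of the Itgav row.

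Of 26 genes listed as inflammatory inducers 6 had a tested row, with 5 at higher values in HVEM-KO tumours, a median log2 fold change of 0.44 (0.29 without Vec 1 and Vec 5) and 0 that passed in edgeR or DESeq2. Among all 11521 tested rows 5989 had a log2 fold change above 0. Csf2rb, a chain of the receptors for GM-CSF and IL-3, was at 0.99 ± 0.29 (SE; edgeR, adjusted p = 0.369), and 0.66 without Vec 1 and Vec 5. Nfkb1, an NF-kB subunit, was at 0.40 ± 0.22, and Vcam1, an adhesion molecule of inflamed endothelium, at 0.15 ± 0.26. Of these rows 15.5% (Csf2rb), 60.7% (Nfkb1) and 11.9% (Vcam1) lay on the named gene.

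Marker rows of cells that make or follow these chemokines had higher means in HVEM-KO tumours in most cases, and 0 of them passed in edgeR. DESeq2 called 1 of them, Padi4 (adjusted p = 0.0149, against 0.291 in edgeR's quasi-likelihood test). Over all 11521 tested rows DESeq2 called 81 (0.703%), and 5989 had a log2 fold change above 0 in edgeR. Of 14 endothelial markers 5 were placed, and all 4 tested rows (Pecam1, Tie1, Vwf and Eng) had log2 fold changes above 0, with a median of 0.79. Emcn held 2 reads. Their sum ran from 102 to 250 CPM in Vec and from 200 to 265 CPM in HVEM-KO tumours. Both placed neutrophil rows of 14 listed, Csf3r and Padi4, were above 0, with a median of 1.09 and sums of 66.8 to 141 and 128 to 254 CPM. All 3 placed macrophage rows of 16, Csf1r, Mertk and Cd163, were above 0, with a median of 0.76 and sums of 27.7 to 81.1 and 52.1 to 136 CPM. Of 16 dendritic cell markers 5 were placed and 3 tested, of which Irf8 and H2-Ob were above 0 and H2-Oa below, with sums of 74.0 to 158 and 133 to 239 CPM. Of 14 fibroblast and matrix genes 11 were tested, 10 above 0, with a median of 0.83 and sums of 4823 to 17868 and 5976 to 25834 CPM. Of 14 T lineage genes 7 were tested, 2 above 0, with a median of -0.41. Of 13 markers of CD8 and NK cells 4 were tested, 3 above 0, with a median of 0.80. Regulatory T cells, which follow Ccl22, had 1 placed row of 8, Ikzf2, at a log2 fold change of 0.03. B cells had 1 tested row, Pax5, at -0.09, and markers of epithelium had none. Of 7 epithelial markers 2 were placed, Krt8 and Cdh1, with 122 and 94 reads over all libraries. Their sum was 14.4 CPM in HVEM-KO 4 and 7.79 CPM in Vec 4, and from 0.627 to 2.52 CPM in the other tumours. HVEM-KO 4 was also the highest tumour for Cx3cl1, and a link between these was not tested. Without Vec 1 and Vec 5, a setting applied to the lists after seeing the data, most list medians were nearer to 0. They were 0.46 for endothelial, 0.83 for neutrophil, 0.45 for macrophage and 0.57 for dendritic cell rows. Those of fibroblast, of CD8 and NK, and of T lineage rows were 0.40, 0.44 and -0.11. Ikzf2 and Pax5, each the only tested row of its list, went further from 0, to 0.19 and -0.27. In that setting 7 of the 11 fibroblast rows were above 0, with Dcn, Sparc and Bgn turned below it, and 1 of the 7 T lineage rows. H2-Oa turned from -0.08 to 0.04, and Pecam1 went from 0.39 to 0.08. The marker names are inferred as well, and from 2.98% (Cd8b1) to 96.0% (Klrc1) of a tested marker row lay on the named gene. For Pecam1 it was 5.86%. Several of these markers are made by more than 1 cell type. Their part in the values of the chemokine rows was not tested.

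**Figure D4:**
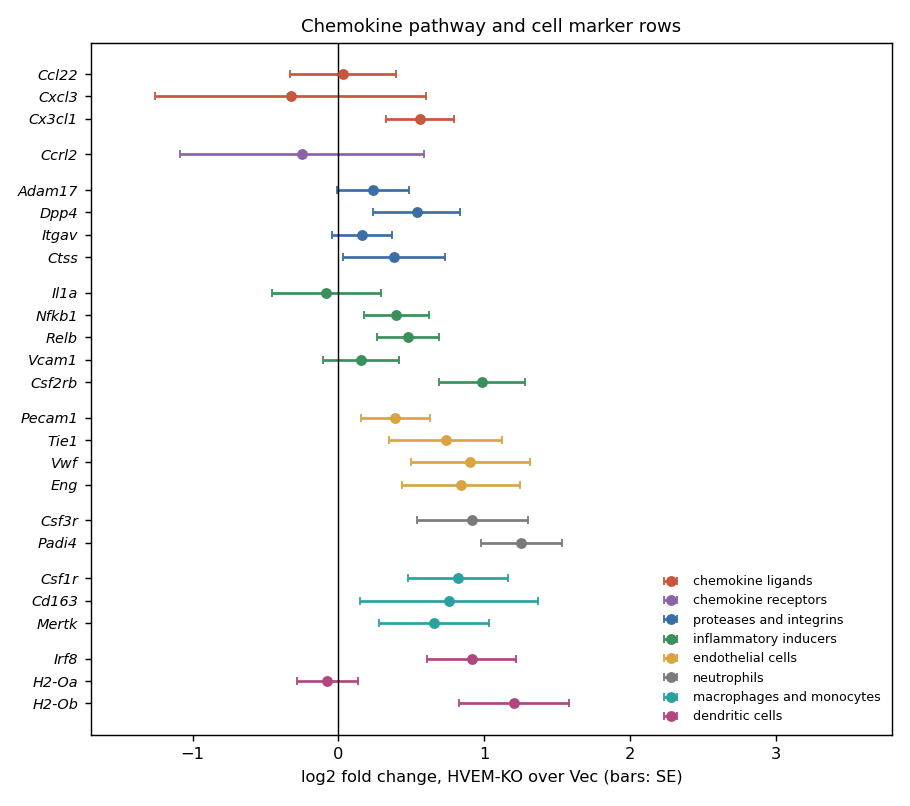
Log2 fold change of HVEM-KO over Vec with its SE for tested rows of the chemokine pathway lists and of markers of cells that make or follow these chemokines. No row shown passed in edgeR, and DESeq2 called Padi4 alone. The bar of Cxcl3 is the widest, and Cx3cl1 lies at 0.56.

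Of the 7 marker sums and the library total, each set against the 3 chemokine rows in 24 relations, 0 held after adjustment. A sum adds up plain CPM, so the row with most reads weighs most. Over the Vec group Irf8 averaged 84.6 CPM, against 19.7 for H2-Oa and 3.71 for H2-Ob. Pecam1 averaged 126 CPM there, against 15.7 for Tie1, 11.2 for Vwf and 10.7 for Eng. Padi4 was at 67.8 and Csf3r at 28.8 CPM. Csf1r averaged 47.6 CPM over the Vec group, against 3.08 for Mertk and 2.39 for Cd163. The dendritic cell, endothelial, neutrophil and macrophage sums thus stand largely for 1 row each, and do not show that several markers agree. In the fibroblast sum Col1a2 (3593 CPM over the Vec group), Col1a1 (1839), Sparc (1777) and Bgn (1373) weighed most. In the T lineage sum Thy1 (2055) and Lat (1300 CPM) did. For Cxcl3 the sums of dendritic cell and endothelial rows had r of 0.68 and 0.68 and rho of 0.65 and 0.62 (exact permutation p = 0.0457 and 0.0469 for r, 0.0666 and 0.0857 for rho, adjusted p = 0.424 for each r and 0.455 for each rho). Without Vec 1 and Vec 2, the farthest from the median of Cxcl3, r was 0.63 and 0.46. Over all 9 tumours the fibroblast, macrophage, CD8 and NK, and neutrophil sums had r of 0.62, 0.60, 0.57 and 0.53 with Cxcl3. The exact permutation p of these r was 0.0812, 0.0904, 0.108 and 0.1435 (adjusted p = 0.424 for the first 3 and 0.431 for the last). A positive r with Cxcl3 was thus not particular to the dendritic cell and endothelial sums. The T lineage sum, of genes that EL4 and host T cells can both express, had an r of -0.65 and a rho of -0.63 with Cxcl3 (exact permutation p = 0.0552 and 0.0760, adjusted p = 0.424 and 0.455) and an r of -0.67 without those 2 tumours. For Cx3cl1 the neutrophil sum had an r of 0.55 and a rho of 0.55 (exact permutation p = 0.124 and 0.133, adjusted p = 0.424 and 0.455), and an r of -0.02 without HVEM-KO 3 and 4. That relation rested on those tumours. Row by row over the 9 tumours, r with Cxcl3 was 0.68 for Irf8, 0.69 for H2-Ob and -0.16 for H2-Oa. It was 0.74 for Pecam1, 0.49 for Tie1, 0.26 for Vwf and 0.52 for Eng. As deviations from the group means, r with Cxcl3 was 0.90 for the dendritic cell, 0.78 for the endothelial and -0.76 for the T lineage sum. For the neutrophil, macrophage, CD8 and NK, and fibroblast sums it was 0.80, 0.68, 0.67 and 0.65. For Cx3cl1 this r was -0.14 with the neutrophil sum, -0.63 with the dendritic cell sum (pooled 0.23) and -0.67 with the fibroblast sum (pooled -0.07). The r of the library total was -0.50 with Cxcl3, -0.26 with Cx3cl1 and -0.01 with Ccl22 (exact permutation p = 0.178, 0.4998 and 0.970, adjusted p = 0.476, 0.857 and 0.970), with rho of -0.42, -0.37 and 0.03 (exact permutation p = 0.270, 0.336 and 0.948, adjusted p = 0.647, 0.711 and 0.948). Without the 2 farthest tumours these r were -0.12, 0.20 and -0.54.

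The rows most like each chemokine row were ranked by Pearson's r of log2 CPM over the 9 tumours, among 4583 other placed rows whose log2 CPM averaged 1 or more. Since they are the top of a ranking, no p is given. For Cxcl3 these were Pip5k1a (r = 0.96), a kinase of phosphoinositides, Emilin2 (0.96), a matrix glycoprotein, Alcam (0.95), an adhesion molecule, Plod2 (0.95), which hydroxylates lysines of collagen, and Npepps (0.93), an aminopeptidase. Emilin2 was at 3.38, 15.45, 7.32, 10.2 and 4.11 CPM in Vec 1 to 5 and at 16.1, 6.38, 12.3 and 7.97 CPM in HVEM-KO 1 to 4. Vec 1 and Vec 5 were thus low, and Vec 2 and HVEM-KO 1 high, as for Cxcl3, but over a 4.76-fold range. As deviations from the group means its r with Cxcl3 was 0.998. Plod2 spanned 11.1-fold and Npepps 1.78-fold.

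For Cx3cl1 the most like rows were Rnft2 (r = 0.91), Rwdd3 (0.86), Afg3l1 (0.83), Nit2 (0.81) and Clec16a (0.81). Rnft2 was at 4.05 to 4.20 CPM in the 5 Vec tumours and at 4.76, 5.21, 5.92 and 6.97 CPM in HVEM-KO 1 to 4. Its groups did not overlap, as in 337 of all tested rows (2.93%), and its log2 fold change was 0.47 ± 0.24 (SE; edgeR, adjusted p = 0.491). For Ccl22 they were Kif21b (0.92), a kinesin, Mapk8ip3 (0.86), a scaffold of JNK signalling, Efr3b (0.83), Dpf3 (0.82) and Gnat2 (0.81). Kif21b was at 18.7, 15.3, 16.2, 19.6 and 14.6 CPM in Vec 1 to 5, again with Vec 1 and Vec 4 the highest of that group. These names are inferred too, and from 1.97% (Pip5k1a) to 56.5% (Mapk8ip3) of such a row lay on the named gene.

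**Figure D5:**
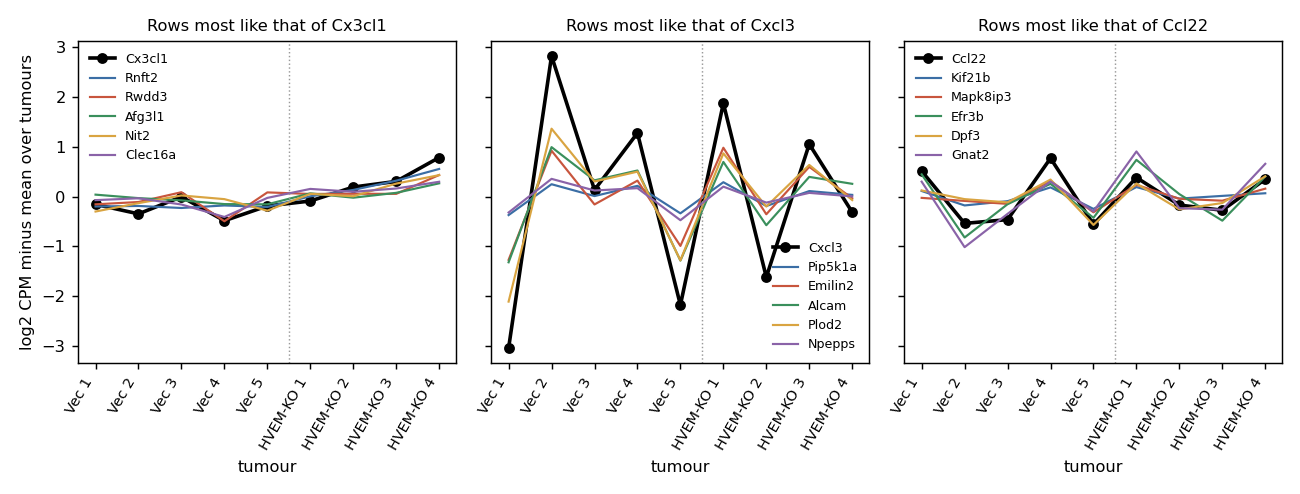
Log2 CPM, with no added count and centred on the mean over the 9 tumours, of each chemokine row (black) and the 5 rows most like it (colours), with a dotted line between Vec and HVEM-KO tumours. The rows like Cxcl3 share its low values in Vec 1 and Vec 5 over a narrower range.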

How the data were processed

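Tumour RNA was isolated in TRIzol before library preparation by a SMARTER kit for mRNA, per the labels' protocols. The authors deposited raw counts per gene. The submitters' processing notes name the build mm10. Which aligner, counting program and annotation were used is not given in the sources used here. Row identifiers were matched to GENCODE vM21 on GRCm38 (52073 of 56923). The locus of each nuclear row was inferred with a hidden Markov model over displacements of up to 2000000 bp in steps of 250 bp (switch penalty 20), fitted to row totals and the overlap with coding exons. It used 102 stretches. The log-likelihood gain over a model without overlap was 15109, and -9772 without displacement. Rows with a posterior of at least 0.99 and at least 100 bp and 90% of their coding overlap on 1 gene, kept under shifts of 250 bp, counted as placed (7541 rows, 39.7% of reads). The same counts chose the displacements, so this gain is no independent test. Where a gene had several rows, the one with most reads was used.

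The test was that of edgeR 4.0.16, run in R 4.3.3 (TMM, filterByExpr, robust quasi-likelihood F tests, Benjamini-Hochberg over 11521 rows, false discovery rate 0.05), with all 9 libraries and no covariates. The SE is the log2 fold change divided by the root of F, and 95% intervals of fold changes are normal intervals from it. CPM use TMM-scaled totals of the tested rows, and log2 CPM a prior count of 2. Counting intervals cover counting error only, since PCR copies of a molecule are counted separately. Alternatives were DESeq2 1.42.0, limma 3.58.1 with voom, other scalings and filters, and leaving out libraries. Scripts were tested on simulated data. Named were the 3 chemokines, every placed gene of the ligand, receptor and protease lists, of the other lists at most the 4 genes with most reads (1 of these is not reported here and is not drawn), and the 5 rows most like each chemokine. Predicted genes and receptor segments were left out of the likeness ranking. The members, lists and tests were chosen with earlier results of these data known.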

Additional observations from a re-analysis of the deposited data

Results flagged for a closer look

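Among 130 groups of values, 4 held 1 library far from the others of its group by Dixon's criterion. Chance alone would give about 1 in 20, that is 6.5 groups. The groups were those of the tested rows named or listed, and listed rows with too few reads to test were not among them. Each value that follows is the distance from that library to its closest neighbour divided by the group's whole range. It was 0.9904 for Rwdd3 in HVEM-KO tumours, with 11.1 CPM in HVEM-KO 4 and 8.54 to 8.57 CPM in the others. HVEM-KO 4 was also the highest tumour for Cx3cl1. Rwdd3 was picked for its likeness to Cx3cl1 over these same tumours, so the shared high tumour is no separate observation. For Il1a it was 0.897, with 3.86 CPM in HVEM-KO 2 and 2.49 to 2.63 CPM in the other HVEM-KO tumours. In Vec tumours it was 0.785 for Lck, with 604.5 CPM in Vec 5 and 363 to 415 CPM in the others, and 0.729 for Cd3e, with 1.22 CPM in Vec 2 and 2.996 to 3.66 CPM in the others. Il1a and Cd3e are named here after their values were seen. None of the values of Cx3cl1, Cxcl3 or Ccl22 met this criterion, the 21.9 CPM of Cxcl3 in Vec 2 included.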

How the results depend on the processing

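Over the 16 alternatives run for each row, the adjusted p ran from 0.311 to 0.812 for Cx3cl1, from 0.637 to 0.998 for Cxcl3 and from 0.790 to 0.9903 for Ccl22, so none passed. Cx3cl1 kept its direction in all 16, with values from 0.37 to 0.69 when 1 library was left out. Left out in turn, single libraries moved Cxcl3 from -0.99 to 0.83 and Ccl22 from -0.0883 to 0.27, both across 0, and limma voom gave Cxcl3 0.51. The number of rows called was 0 with all libraries and the filter, 81 with DESeq2, 307 without a low-count filter, and from 0 to 1 when 1 library was left out. The relation of Cx3cl1 and Ccl22 was 0.17 with library size alone and ran from -0.37 to 0.34 without single libraries. That of Cxcl3 and Ccl22 was 0.0738 with library size alone and ran from -0.25 to 0.26. That of Cx3cl1 and Cxcl3 was below 0 in every alternative, from -0.37 to -0.04 without single libraries and -0.43 as deviations from the group means. The cause of these changes was not tested. No paired analysis was possible because the labels give the groups no shared replicate numbers. Counting error weighs most on Cxcl3 in Vec 1, with 3 reads, and Vec 5, with 4. These were not shallow libraries. They held 8008123 and 6347705 counts in all, against 5674867 in Vec 2, which had 126 reads of the Cxcl3 row.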
